A study of Mus musculus with 6 samples.

Results

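Mutations of SF3B1 change which 3' splice sites are used, and a set of genes has been reported, largely in human cells, as mis-spliced when mutant SF3B1 is present. The 9 genes described here are mouse counterparts from that set, chosen by symbol: Ppp2r5a, Brd9, Dvl2, Coasy, Tmem14c, Serbp1, Tti1, Zdhhc16 and Dynll1. All 9 were among the 26469 gene rows of the deposited table and all 9 passed the filter on low counts, which kept 18323 genes. The rule names genes from published reports and uses no value of these libraries. The measure is the RNA level of the whole gene, and counts per gene do not show which splice site or which Sf3b1 allele a read came from.

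RNA was sequenced from 6 cultures of CD4+ T cells taken from mouse spleen. The 3 samples called mutant came from mice with the genotype Sf3b1K700E/fl and Cd4Cre, a recombinase under the Cd4 promoter that acts from T cell development on, and their label gives an Sf3b1 mutation, the cancer-associated K700E change. The 3 samples called control came from Sf3b1K700E/fl mice without Cd4Cre and are labelled WT, so both groups carried the conditional allele and only the mutant group could recombine it. All naive cells were cultured for 36 h with TGFβ at 5 ng/ml, hamster antibodies to CD3 and CD28, and antibodies to IL-4 and IFNγ, a mixture that drives differentiation into regulatory T cells (Tregs). The age and sex of the mice are not given. Nothing says whether each sample came from a separate mouse, so the spread behind each p-value is that of these 6 samples and may be in part technical.

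SF3B1 is a subunit of the U2 small nuclear ribonucleoprotein, which binds the branch point of an intron just before the 3' splice site. With the hotspot mutation a different branch point can be used, and the splice then falls on a cryptic AG a short way upstream of the usual one. The extra bases can carry a stop codon or shift the reading frame, and such transcripts are removed by nonsense-mediated decay, which lowers the RNA level of the gene. Other mis-spliced transcripts escape decay and can leave the level as it was. For this reason BRD9, PPP2R5A, COASY, DVL2 and TMEM14C have been studied in human leukaemia and myelodysplasia with mutant SF3B1 as genes whose dose or product may alter.

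The sequences below show annotated acceptor pairs in 2 of the genes, as examples of how an upstream acceptor adds bases. They come from the GENCODE M21 mouse transcripts (build GRCm38), read 5′ to 3′ across an exon junction, with the bases that only the upstream acceptor adds in capitals. The Ppp2r5a pair differs by 24 bases, and the transcript with the upstream acceptor is classed as subject to nonsense-mediated decay. In the frame of the coding transcript its first added codon is the stop TAA. The Serbp1 pair shown, not the only one annotated in that gene, differs by 45 bases, a whole number of codons without a stop. Both of its acceptors occur in coding transcripts. Another annotated Serbp1 pair, not shown, differs by 18 bases.
Ppp2r5a, upstream acceptor: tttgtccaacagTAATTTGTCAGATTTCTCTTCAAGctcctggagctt
Ppp2r5a, downstream acceptor: tttgtccaacagctcctggagctt
Serbp1, upstream acceptor: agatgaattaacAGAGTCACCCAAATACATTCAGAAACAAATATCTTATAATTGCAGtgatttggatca
Serbp1, downstream acceptor: agatgaattaactgatttggatca

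Brd9 also had annotated acceptor pairs, only 2 and 3 bases apart. Thus 3 of the 9 genes held an annotated pair of 3' splice sites within 50 bases that share a donor site, against 22.2% of the 12444 tested protein-coding genes in the same annotation. Ppp2r5a, Brd9, Dvl2, Zdhhc16 and Serbp1 had at least 1 annotated transcript of the nonsense-mediated decay class, 5 of 9 genes, against 20.2% of the 17768 tested genes with an entry. Unlike the 9 genes, that background also holds genes that are not protein-coding, and a share over coding genes alone was not taken. These are descriptions of the annotation, and the pairs were not matched to the sites reported with mutant SF3B1. Whether any of the annotated sites was used in these cells was not analysed here.

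Counts added up to between 34524433 and 36867313 in the mutant libraries and between 33633196 and 43928723 in the control libraries. Levels are given as CPM, the usual depth-normalised count, with the library total scaled by TMM. T cell markers were high in every library, the 7 CD4 T cell genes together at 1675 to 2315 CPM in mutant and 1365 to 1956 CPM in control libraries. The 5 B cell markers together were at 3.67 to 40.2 CPM in mutant and 1.92 to 4.91 CPM in control libraries, with the highest value in mutant 2, and Cd8a and Cd8b1 together at 6.56 to 17.3 CPM in mutant and 5.81 to 40.4 CPM in control libraries, with the highest value in control 1. Mutant 1 stood apart from the other libraries. Its 6 naive T cell markers summed to 1738 CPM, against 696 and 501 CPM in mutant 2 and 3 and 675 to 741 CPM in control libraries. Its 6 activation markers summed to 3231 CPM, against 4172 and 4447 CPM in mutant 2 and 3 and 4869 to 5237 CPM in control libraries. The log2 fold change of each of the 9 genes is therefore given with and without mutant 1. Sf3b1 itself was at 627 ± 30.4 CPM in mutant and 661 ± 44.3 CPM in control cells (SD, n = 3 each), a log2 fold change of -0.075 ± 0.13 (SE).

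None of the 9 genes passed the threshold of 0.05 on the adjusted p between mutant and control cells. By edgeR's quasi-likelihood test the adjusted p ran from 0.724 for Tti1 to 0.931 for Brd9, and 0 of the 9 had an unadjusted p under 0.05. Over all 18323 genes tested the same test called 0 genes (0%), with 1396 (7.62%) at an unadjusted p under 0.05. DESeq2 gave an adjusted p to 15628 genes and called 99 of them (0.633%). Limma-voom called 0 (0%) of the 18323 genes, and neither tool called any of the 9. On simulated data DESeq2 made 59 false calls, against 13 for edgeR and 9 for limma-voom. The log2 fold change, mutant minus control, was below 0 in 6 and above 0 in 3 of the 9 genes, with a median of -0.12 beside 0.024 for all genes tested. Without mutant 1 the median was -0.093, with 7 of the 9 below 0, and without control 2 it was 0.068, with 4 of the 9 below 0. The 95% intervals of the 9 genes lay between 0.568-fold and 1.45-fold, so a 2-fold difference in either direction was outside the interval of every one of them. Smaller differences are within several of these intervals.

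**Figure D1:**
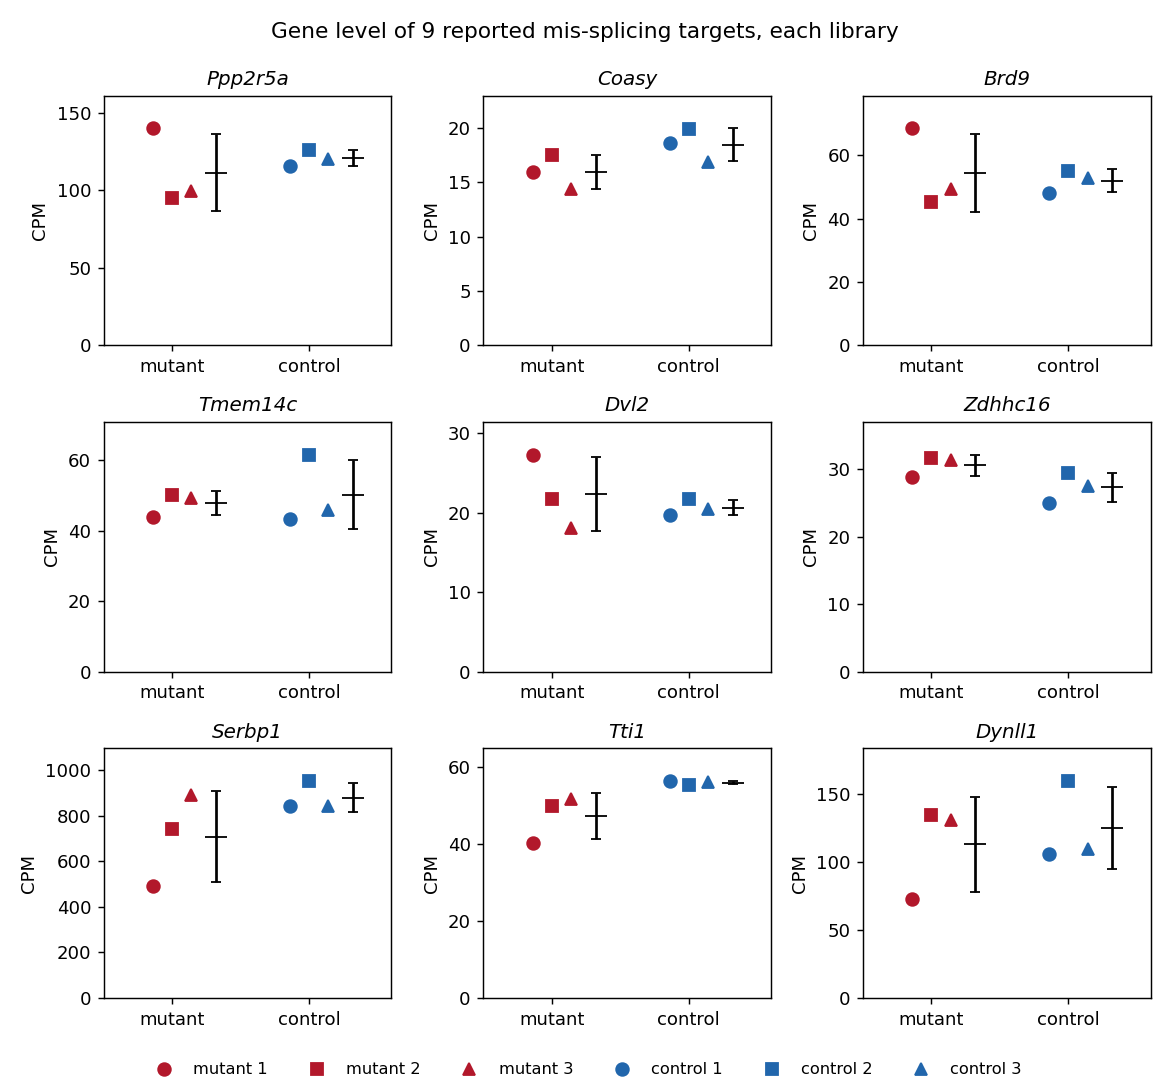
CPM of the 9 genes in each library, with mutant libraries (red) left of control libraries (blue), symbols for the replicate number, and a black bar for the mean with the SD over 3 libraries. Only Tti1 has every mutant library below every control library, and mutant 1 is the highest library for Ppp2r5a, Brd9 and Dvl2 and the lowest for Serbp1, Tti1 and Dynll1.

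Ppp2r5a (ENSMUSG00000026626) encodes a B56 regulatory subunit of protein phosphatase 2A, which directs the enzyme to substrates such as MYC. It was at 140, 94.96 and 99.5 CPM in mutant 1, 2 and 3 and at 116, 126 and 120 CPM in control 1, 2 and 3. Mutant 1 lay above and mutant 2 and 3 lay below all control libraries. On all 6 libraries the log2 fold change came to -0.12 ± 0.18 (SE, with a 95% interval from -0.52 to 0.29; edgeR adjusted p = 0.872). Without mutant 1 it was -0.30 ± 0.12 (95% interval from -0.57 to -0.030), with an unadjusted p = 0.0334 in edgeR and an adjusted p = 0.541 over all genes. Ppp2r5a is also the gene of the acceptor pair above in which the upstream site adds a stop codon. Use of that site was not analysed here, and any link to the level was not tested.

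The other B56 subunit genes gave no call either. Ppp2r5c was at 261 ± 75.9 CPM in mutant and 216 ± 38.6 CPM in control cells, and Ppp2r5d at 111 ± 11.96 CPM in mutant and 114 ± 22.4 CPM in control cells (SD, n = 3 each). Ppp2r5e was at 79.4 ± 9.40 CPM in mutant and 74.7 ± 2.74 CPM in control cells, and Ppp2r5b, the lowest of the family, at 4.78 ± 2.33 CPM in mutant and 5.90 ± 1.07 CPM in control cells. Of the 21 listed subunits and regulators of the phosphatase, 0 were called, 6 had a log2 fold change above 0 and 15 below, and the median was -0.045. The smallest unadjusted p in that list was that of Ensa, an inhibitor of the enzyme in mitosis, at 99.7 ± 23.5 CPM in mutant and 76.5 ± 3.91 CPM in control cells (log2 fold change 0.38 ± 0.19, SE, and 0.21 without mutant 1). For Ppp2r5c the log2 fold change was 0.27 on all 6 libraries and 0.019 without mutant 1. Ppp2r2d, a B55 subunit that Ensa inhibits, was at 51.9 ± 3.46 CPM in mutant and 61.4 ± 6.54 CPM in control cells, with every mutant library below the control range (log2 fold change -0.24 ± 0.14, SE).

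Brd9 (ENSMUSG00000057649) encodes the bromodomain subunit that defines the non-canonical BAF chromatin remodelling complex. In human cells with mutant SF3B1 its RNA gains a poison exon and its level drops. Here it was at 68.5, 45.3 and 49.3 CPM in mutant 1, 2 and 3 and at 48.1, 55.1 and 52.9 CPM in control 1, 2 and 3. The groups overlapped, with mutant 1 above all other libraries and mutant 2 below them. Between mutant and control the log2 fold change came to 0.063 ± 0.18 (SE, with a 95% interval from -0.36 to 0.48; edgeR adjusted p = 0.931), and -0.12 ± 0.13 without mutant 1. Among the partners, Bicra and Bicral, the GLTSCR1 subunits particular to this complex, were at 30.3 ± 2.71 and 60.7 ± 13.2 CPM in mutant cells and at 27.6 ± 3.70 and 65.1 ± 4.51 CPM in control cells. Smarcd1 was at 50.0 ± 11.8 CPM in mutant and 47.7 ± 4.27 CPM in control cells. Of 12 genes of the complex 0 were called, with 5 log2 fold changes above 0 and 7 below, and a median of -0.053. The smallest unadjusted p-values belonged to Bcl7a, at 21.4 ± 3.34 CPM in mutant and 26.6 ± 4.27 CPM in control cells, and Actb, at 9757 ± 1305 CPM in mutant and 11455 ± 1877 CPM in control cells. For Actb the log2 fold change was -0.23 on all 6 libraries and -0.11 without mutant 1.

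Dvl2 (ENSMUSG00000020888) encodes Dishevelled 2, which relays the Wnt signal from Frizzled receptors to the complex that degrades β-catenin. It was at 27.3, 21.7 and 18.0 CPM in mutant 1, 2 and 3 and at 19.7, 21.7 and 20.5 CPM in control 1, 2 and 3. The mutant libraries spanned the whole control range and beyond it on both sides. Its log2 fold change came to 0.11 ± 0.18 (SE, with a 95% interval from -0.31 to 0.54; edgeR adjusted p = 0.878), and -0.043 ± 0.14 without mutant 1. Its paralogs were at 27.0 ± 1.46 CPM (Dvl1) and 27.0 ± 1.14 CPM (Dvl3) in mutant cells and at 28.3 ± 0.589 and 24.1 ± 1.56 CPM in control cells. All mutant libraries lay above all control libraries for Dvl3, with a log2 fold change of 0.16 ± 0.14 (SE).

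Of 18 genes of the Wnt relay 0 were called and 2 had an unadjusted p under 0.05, both with lower means in mutant cells. Csnk1e, a casein kinase that phosphorylates Dishevelled, was at 14.8 ± 1.12 CPM in mutant and 24.6 ± 5.61 CPM in control cells without overlap of the groups. Its log2 fold change was -0.73 ± 0.20 (SE), with an unadjusted p = 0.00731 and an adjusted p = 0.598 in edgeR. The receptor gene Fzd7 was at 1.57 ± 0.486 CPM in mutant and 4.49 ± 2.998 CPM in control cells with overlapping groups, with a log2 fold change of -1.51 on all 6 libraries and -0.86 without control 1. The list had 10 log2 fold changes above 0 and 8 below, and a median of 0.019.

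**Figure D2:**
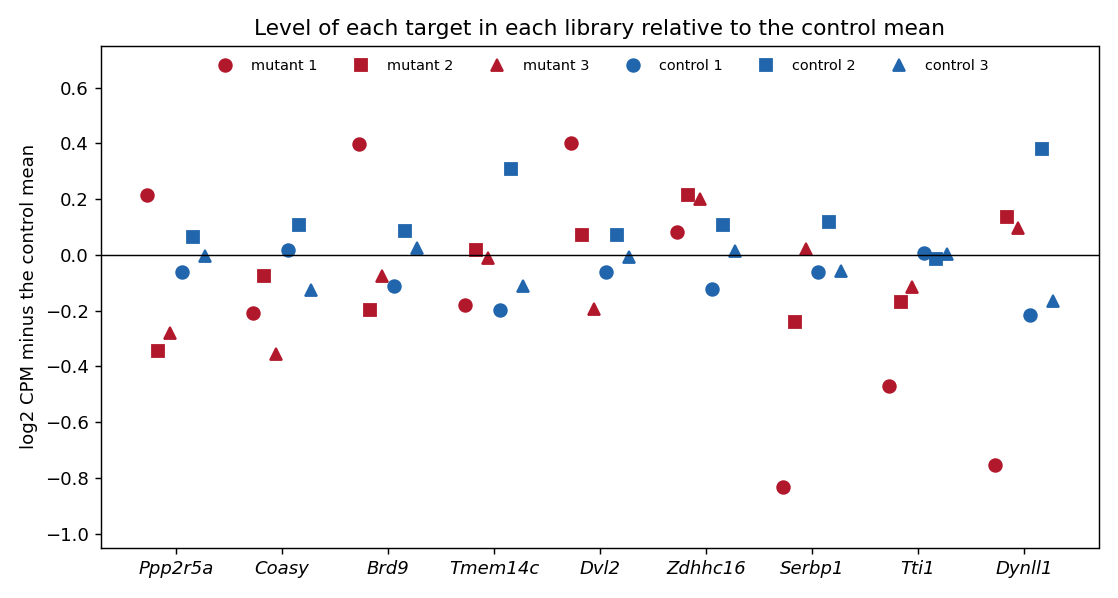
Difference in log2 CPM between each library and the control mean, for each of the 9 genes, with mutant libraries in red left of control libraries in blue. Mutant 1 lies farther from 0 than any other library for Brd9, Dvl2, Serbp1, Tti1 and Dynll1, upward for the first 2 and downward for the other 3.

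Coasy and Tmem14c are nuclear genes whose proteins act in mitochondria. Coasy (ENSMUSG00000001755) encodes coenzyme A synthase, which carries out the last steps of coenzyme A synthesis. It was at 16.0, 17.5 and 14.4 CPM in mutant 1, 2 and 3 and at 18.6, 19.9 and 16.9 CPM in control 1, 2 and 3. The means differed in the direction of lower values in mutant cells, but mutant 2 lay above control 3. For Coasy the log2 fold change came to -0.21 ± 0.16 (SE, with a 95% interval from -0.58 to 0.16; edgeR adjusted p = 0.761), and -0.20 ± 0.16 without mutant 1. The enzymes just before it in the pathway, Ppcs and Ppcdc, were at 8.77 ± 1.95 and 24.3 ± 4.47 CPM in mutant cells and at 8.37 ± 2.00 and 21.9 ± 1.94 CPM in control cells. In the list of 9 coenzyme A genes 0 were called, 5 had a log2 fold change above 0 and 4 below. Slc25a42, the mitochondrial coenzyme A carrier, was at 12.3 ± 2.30 CPM in mutant and 9.03 ± 0.704 CPM in control cells without overlap. Pank3, a pantothenate kinase at the entry of the pathway, was at 158 ± 46.3 CPM in mutant and 205 ± 23.4 CPM in control cells with overlap, with a log2 fold change of -0.37 on all 6 libraries and -0.14 without mutant 1.

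Tmem14c (ENSMUSG00000021361) encodes an inner mitochondrial membrane protein that heme synthesis needs for the handling of porphyrin. It was at 43.9, 50.3 and 49.3 CPM in mutant 1, 2 and 3 and at 43.3, 61.6 and 46.0 CPM in control 1, 2 and 3. All mutant values lay inside the control range. For Tmem14c the log2 fold change came to -0.073 ± 0.17 (SE, with a 95% interval from -0.47 to 0.32; edgeR adjusted p = 0.914). It was 0.097 without control 2, the library with the highest value, and -0.0025 without mutant 1. Of 13 heme synthesis genes 0 were called, with 5 log2 fold changes above 0 and 8 below and a median of -0.11. Cpox, an enzyme of the pathway, was at 92.7 ± 39.6 CPM in mutant and 128 ± 13.7 CPM in control cells with overlap, with a log2 fold change of -0.47 on all 6 libraries and -0.13 without mutant 1.

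Serbp1 (ENSMUSG00000036371) encodes an RNA-binding protein that occupies the mRNA channel of idle ribosomes. It was at 492, 742 and 889 CPM in mutant 1, 2 and 3 and at 840, 952 and 842 CPM in control 1, 2 and 3. Mutant 1 and 2 lay below every control library and mutant 3 lay inside the control range. The log2 fold change of -0.31 ± 0.22 (SE, with a 95% interval from -0.82 to 0.19) had the greatest size among the 9 genes, with an edgeR adjusted p = 0.752. It was -0.093 ± 0.14 without mutant 1 and -0.51 without mutant 3. Its paralog Habp4 was at 11.2 ± 3.41 CPM in mutant and 13.2 ± 0.893 CPM in control cells.

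Of 8 genes of ribosome storage and elongation 0 were called, with 2 log2 fold changes above 0 and 6 below and a median of -0.20. Eef2k, the kinase that stops elongation factor 2, was at 12.3 ± 3.98 CPM in mutant and 20.7 ± 2.04 CPM in control cells. Ifrd1 was at 67.7 ± 18.0 CPM in mutant and 108 ± 13.3 CPM in control cells. For both, all mutant libraries lay below the control range, with unadjusted p = 0.0208 and 0.0164 in edgeR and adjusted p-values above the threshold.

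Tti1 (ENSMUSG00000027650) encodes a subunit of the TTT complex, a co-chaperone that matures the large kinases ATM, ATR, mTOR, DNA-PK and SMG1. SMG1 is the kinase that starts nonsense-mediated decay. Tti1 was at 40.4, 49.8 and 51.7 CPM in mutant 1, 2 and 3 and at 56.3, 55.5 and 56.1 CPM in control 1, 2 and 3. It was the only one of the 9 genes whose groups did not overlap, 1 of 9 beside 14.1% of all genes tested (7.48% lower and 6.6% higher in mutant libraries). Its log2 fold change came to -0.24 ± 0.14 (SE, with a 95% interval from -0.57 to 0.087), with an unadjusted p = 0.128 and an adjusted p = 0.724 in edgeR. Without mutant 1 it was -0.13 ± 0.11, and the remaining mutant libraries still lay below all control libraries. The coefficient of variation was 12.9% among mutant libraries and 0.778% among control libraries.

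The other subunits of the complex, Tti2 and Telo2, were at 36.9 ± 5.34 and 28.5 ± 6.21 CPM in mutant cells and at 34.6 ± 2.27 and 32.1 ± 0.772 CPM in control cells. Of the 12 genes of the complex, its R2TP partners and its clients 0 were called, with 2 log2 fold changes above 0 and 10 below and a median of -0.20. Atr, the kinase of the replication stress checkpoint, was at 91.0 ± 6.46 CPM in mutant and 122 ± 13.99 CPM in control cells without overlap. Its log2 fold change was -0.42 ± 0.14 (SE), with an unadjusted p = 0.0180 and an adjusted p = 0.644 in edgeR. Prkdc, which encodes the catalytic subunit of DNA-PK, was at 74.8 ± 9.98 CPM in mutant and 99.1 ± 23.3 CPM in control cells with overlap. Over the 6 libraries the genes with the pattern most like Tti1 among 8106 genes of sufficient level were Kif14, Gm5182 and Por, with Pearson r of log2 CPM of 0.998, 0.997 and 0.997. As many as 287 genes had an r above 0.95, and these values share their libraries, so the likeness is a description. Kif14, a kinesin of cytokinesis, was at 69.4 ± 11.03 CPM in mutant and 87.3 ± 1.29 CPM in control cells.

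Zdhhc16 (ENSMUSG00000025157) encodes a palmitoyltransferase of the endoplasmic reticulum, which attaches a fatty acid to cysteines of other proteins. It was at 28.8, 31.7 and 31.3 CPM in mutant 1, 2 and 3 and at 25.0, 29.4 and 27.5 CPM in control 1, 2 and 3. Mutant 2 and 3 lay above every control library and mutant 1 below control 2. The log2 fold change of 0.16 ± 0.14 (SE, with a 95% interval from -0.15 to 0.48; edgeR adjusted p = 0.785) was the highest of the 9 genes, and it was 0.22 ± 0.13 without mutant 1. Zdhhc6, a palmitoyltransferase that ZDHHC16 modifies in human cells, was at 61.9 ± 4.52 CPM in mutant and 75.03 ± 3.64 CPM in control cells. It was lower in every mutant library, with a log2 fold change of -0.28 ± 0.13 (SE) and an unadjusted p = 0.0641 in edgeR. Of 20 genes of the family and its cofactors 0 were called, with 9 log2 fold changes above 0 and 11 below. Zdhhc9 was at 22.7 ± 4.25 CPM in mutant and 27.7 ± 1.84 CPM in control cells with overlap, with a log2 fold change of -0.28 on all 6 libraries and -0.16 without mutant 1.

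Dynll1 (ENSMUSG00000009013) encodes the dynein light chain LC8, a small dimer that also binds many proteins outside the motor, among them the death factor BIM. It was at 72.7, 135 and 131 CPM in mutant 1, 2 and 3 and at 106, 159 and 109 CPM in control 1, 2 and 3. Mutant 1 was the lowest and control 2 the highest of the 6 libraries, 2.19-fold apart, the widest range among the 9 genes. Its log2 fold change came to -0.15 ± 0.27 (SE, with a 95% interval from -0.77 to 0.48; edgeR adjusted p = 0.894), and 0.10 ± 0.19 without mutant 1. Its paralog Dynll2 was at 70.3 ± 13.0 CPM in mutant and 72.3 ± 4.89 CPM in control cells, and Atmin, a transcription factor that activates Dynll1, at 62.9 ± 7.04 CPM in mutant and 64.7 ± 2.41 CPM in control cells.

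Of 14 genes of light chains, dynein and their ligands 0 were called, with 4 log2 fold changes above 0 and 10 below. Bcl2l11, which encodes BIM, was at 113, 38.9 and 41.4 CPM in mutant 1, 2 and 3 and at 15.8, 31.1 and 27.5 CPM in control 1, 2 and 3. Every mutant library lay above every control library, mutant 1 by far the most. Dynlt3, another dynein light chain, was at 26.4 ± 4.96 CPM in mutant and 32.4 ± 1.42 CPM in control cells with overlap.

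**Figure D3:**
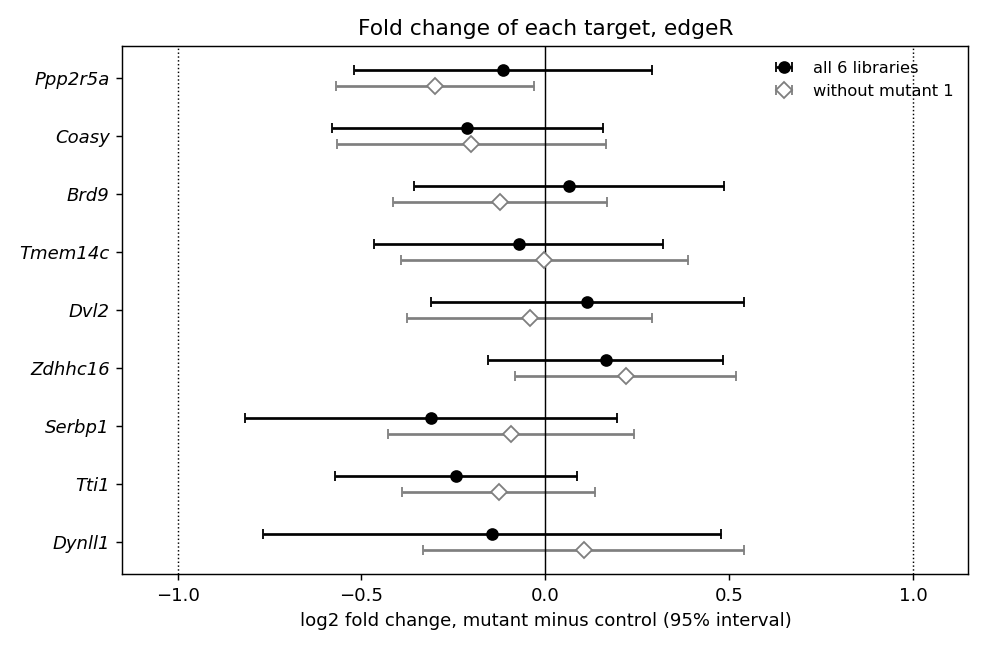
Log2 fold change of the 9 genes, mutant minus control, with 95% intervals from edgeR, on all 6 libraries (filled circles) and without mutant 1 (open diamonds). Dotted lines mark a 2-fold difference, and every interval lies inside them. Only that of Ppp2r5a without mutant 1 excludes 0, before adjustment over all genes.

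Mutant 1 was the highest or the lowest of the 6 libraries in 6 of the 9 genes, and over all 18323 genes tested it was so in 59.7%, so the 9 genes were near the background. Control 2 was the highest or the lowest in 4 of the 9 genes, beside 41.2% of all genes tested. It was the highest in all 4, namely Coasy, Tmem14c, Serbp1 and Dynll1. The coefficient of variation was larger among mutant than among control libraries in 7 of 9 genes, with medians of 20.8% in mutant and 7.29% in control libraries. Over all genes tested this held for 65.2%, with medians of 22.99% in mutant and 14.8% in control libraries. Mutant 1 was then left out because it was seen to stand apart. Leaving out an extreme library lowers the spread by itself, so the source of the larger spread was not tested. Between mutant 2 and 3 alone the coefficient of variation was above that of the control libraries in 4 of the 9 genes, Coasy, Dvl2, Serbp1 and Tti1, beside 45.2% of all genes. Its median over the 9 genes was then 3.27% in mutant and 7.29% in control libraries, beside 13.3% and 14.8% over all genes tested. The mutant value then rests on fewer libraries than the control value, so these levels are not directly comparable. Without mutant 1 the groups did not overlap in 3 of the 9 genes, namely Ppp2r5a and Tti1 (lower in mutant libraries) and Zdhhc16 (higher), beside 24.1% of all genes. Ppp2r5a was then the only one of the 9 with an unadjusted p under 0.05 in edgeR, beside 8.32% of all genes. The summed naive markers were highest and the summed activation markers lowest in mutant 1, as given above, but not every marker followed. Lef1 in mutant 1, at 345 CPM, lay inside the control range of 330 to 362 CPM, and Myc was lowest in mutant 2. Irf4, Tfrc, Myc and Slc7a5 were lower in every mutant library than in every control library, as were 7.48% of all genes tested. The other activation markers, Cd69 and Mki67, overlapped between the groups. Cd69 was highest in mutant 3, at 259 CPM, and lowest in mutant 1, at 98.5 CPM. The part of these markers in the values of the 9 genes was not tested.

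Per length of transcript the 9 genes spanned a wide range of levels. Using the median length of the coding transcripts of GENCODE M21, Serbp1 was the most abundant, at 479 ± 136 CPM per kb in mutant and 595 ± 43.4 CPM per kb in control cells. Dynll1 followed at 81.8 ± 25.2 CPM per kb in mutant and 90.5 ± 21.8 CPM per kb in control cells, Tmem14c at 52.3 ± 3.76 CPM per kb in mutant and 55.02 ± 10.8 CPM per kb in control cells, and Ppp2r5a at 36.1 ± 8.04 CPM per kb in mutant and 39.1 ± 1.69 CPM per kb in control cells. Lower down were Brd9 at 22.5 ± 5.13 CPM per kb in mutant and 21.5 ± 1.48 CPM per kb in control cells and Zdhhc16 at 16.8 ± 0.848 CPM per kb in mutant and 15.0 ± 1.20 CPM per kb in control cells. Tti1 was at 12.5 ± 1.61 CPM per kb in mutant and 14.7 ± 0.115 CPM per kb in control cells, Coasy at 7.05 ± 0.680 CPM per kb in mutant and 8.17 ± 0.658 CPM per kb in control cells, and Dvl2 at 5.58 ± 1.16 CPM per kb in mutant and 5.15 ± 0.242 CPM per kb in control cells. Zdhhc16 and Tti1 overlapped in control libraries, Dynll1 overlapped Tmem14c in mutant libraries, and Coasy overlapped Dvl2 in mutant libraries. The place of Serbp1 depends on the transcript counted: with the union of its exons, which includes a far longer transcript, it was at 56.7 CPM per kb in control cells, close to Dynll1 at 56.5 and Tmem14c at 55.0.

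Reads of some of the 9 genes may be shared with neighbours. In the GENCODE M21 annotation, 4 of the 9 genes overlap another. Brd9 overlaps the antisense gene Gm41002, and Serbp1 overlaps Gm38825 and Gm44050, none of which had a row under these symbols. Dvl2 overlaps Mir324 on the same strand, whose level was not analysed here. Dvl2 overlaps Acadvl on the other strand, Zdhhc16 overlaps Mms19 and Serbp1 overlaps Il12rb2, and the use of strand in counting is not given in the sources used here. Acadvl was at 80.9 ± 1.08 CPM in mutant and 74.8 ± 6.16 CPM in control cells, and Mms19 at 82.3 ± 11.8 CPM in mutant and 83.9 ± 7.06 CPM in control cells. Il12rb2 was at 9.40 ± 10.96 CPM in mutant and 6.22 ± 1.19 CPM in control cells, far below Serbp1. Its values were 2.12, 22.0 and 4.08 CPM in mutant 1, 2 and 3, so mutant 2 alone set the higher mutant mean, and 5.17, 5.97 and 7.52 CPM in control 1, 2 and 3. These neighbours were named after their values were seen.

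Other genes reported as mis-spliced with mutant SF3B1 gave no call either. Of 9 such genes 0 passed edgeR's test, with 6 log2 fold changes above 0 and 3 below and a median of 0.052. Map3k7, the gene of the kinase TAK1, had a log2 fold change of 0.037 ± 0.16, and Anapc13, the anaphase-promoting complex subunit in the series title, of -0.094 ± 0.19 (SE). Orai2, a calcium channel gene, had the smallest unadjusted p (0.0826), at 56.4 ± 37.4 CPM in mutant and 30.6 ± 9.51 CPM in control cells with overlap. Its log2 fold change was 0.88 on all 6 libraries and 0.21 without mutant 1. Ankhd1 was at 149 ± 4.05 CPM in mutant and 172 ± 12.8 CPM in control cells, lower in every mutant library (log2 fold change -0.20 ± 0.13, SE).

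**Figure D4:**
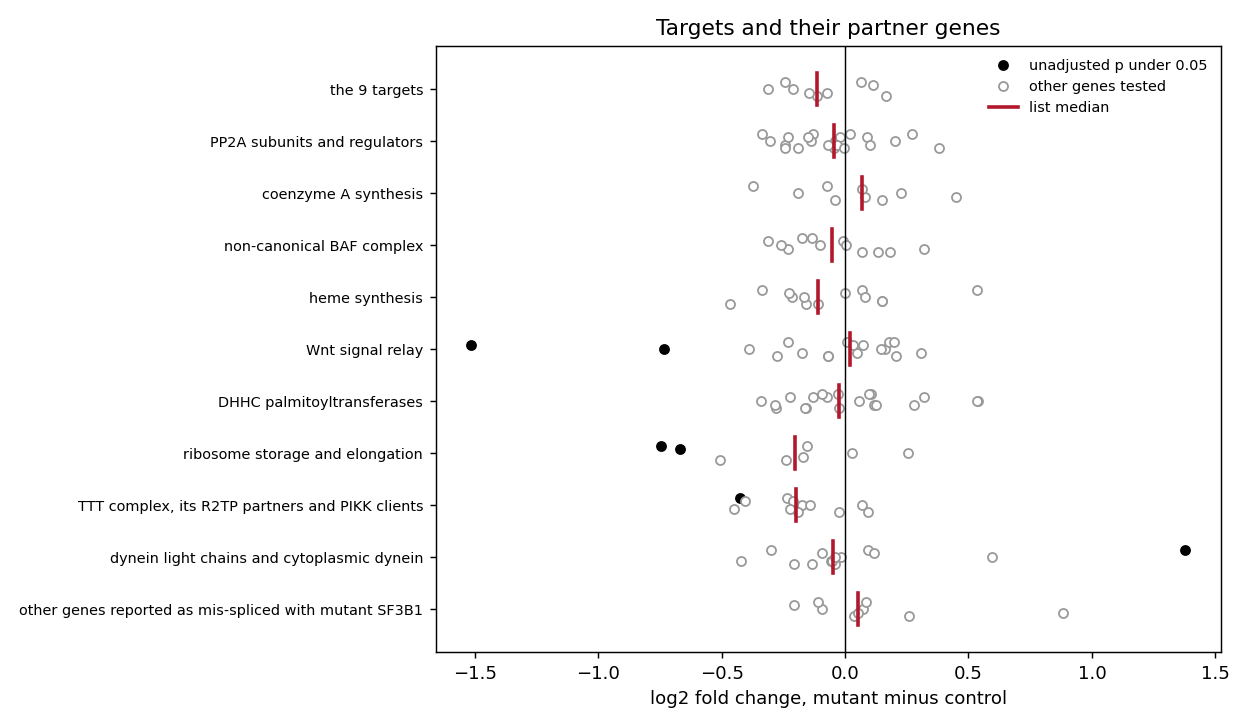
Log2 fold change, mutant minus control, of the 9 genes and of their 10 partner lists, 1 point per gene tested, with red bars for list medians. Filled points had an unadjusted p under 0.05 in edgeR; these are Csnk1e and Fzd7, Eef2k and Ifrd1, Atr, and Bcl2l11, the only one of them to the right of 0.

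Counted once each, the partner lists held 135 genes, of which 0 were called by edgeR. An unadjusted p under 0.05 was found in 6 of them, 4.44% beside 7.62% of all genes. The groups did not overlap in 16 of them, 11.9% beside 14.1% of all genes, with 5 higher and 11 lower in mutant libraries. The sixth gene below that unadjusted p was Bcl2l11, with a log2 fold change of 1.38 ± 0.45 (SE) on all 6 libraries and 0.71 without mutant 1. Its edgeR adjusted p on all 6 libraries was 0.634.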

How the data were processed

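The authors deposited 1 table of estimated counts, not normalized, for the genes of 6 libraries, under Ensembl IDs with symbols. Per the submitters' processing notes, STAR 2.7.8a and Partek and the builds GRCm39 and mm39 were used; the role of each, the counting method and the annotation were not given in the sources used here. Per the labels' protocols, libraries were made from total RNA with ribosomal RNA removed. Counts were rounded to whole numbers.

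Low genes were dropped by filterByExpr at a minimum count of 10. With TMM scaling, mutant was compared with control in edgeR 4.0.16 (R 4.3.3) by the quasi-likelihood test with robust dispersions on all 6 samples. P-values are two-sided and Benjamini-Hochberg adjusted over 18323 genes at a threshold of 0.05. Each 95% interval uses a standard error of the absolute log2 fold change over the root of F. DESeq2 1.42.0 and limma-voom (limma 3.58.1) were alternatives. On simulated data for mutant against control over 18323 genes, edgeR recovered 28% of 2-fold and 82% of 4-fold changes with 13 false calls. DESeq2 recovered 46% and 89% with 59 false calls, and limma-voom 18% and 80% with 9.

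The members, lists and tests were chosen with earlier results of these data known. Partner genes named are close relatives or direct partners of the members and, in each list, the 2 genes with the smallest unadjusted p, of which 1 is not reported here; likeness was taken to the member with the smallest p over genes whose mean log2 CPM reached 4. Lengths and transcript classes came from GENCODE M21 (GRCm38), matched by gene ID; no coordinates are printed, since the files use another build. The spread without mutant 1 was added after seeing the data. Nothing says that a replicate number marks a shared animal or day, so the numbers were not treated as pairs. Same-numbered samples did not deviate together (correlations from -0.067 to -0.028), and other pairings of mutant and control ran from -0.0052 to 0.073. Replicate libraries differed by more than sampling noise in every pair (chi-square over degrees of freedom, lowest 16.98 and highest 157).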

Additional observations from a re-analysis of the deposited data

How the results depend on the processing

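None of the 9 genes, Sf3b1 or the partner genes passed an adjusted p of 0.05 under any alternative run: other scalings, DESeq2, limma-voom, no filter, a filter of 1 CPM in 3 samples, mitochondrial and small structural RNA genes left out, a block for the replicate number, or leaving out each library. The call count over all genes stayed 0 in edgeR and limma-voom and was 99 in DESeq2 (51 higher, 48 lower). With the replicate block 0 of the 9 genes and 0 of all genes were called (991 with an unadjusted p under 0.05), and no call changed. Leaving out 1 library turned the direction of 5 of the 9 genes, with ranges from -0.30 to 0.0090 for Ppp2r5a, -0.12 to 0.20 for Brd9, -0.18 to 0.097 for Tmem14c, -0.043 to 0.24 for Dvl2 and -0.27 to 0.10 for Dynll1. The median of the 9 genes turned to 0.068 without control 2. Coasy ran from -0.26 to -0.15, Zdhhc16 from 0.10 to 0.22, Serbp1 from -0.51 to -0.093 and Tti1 from -0.32 to -0.13. Without mutant 3 Serbp1 had the smallest adjusted p of the 9 genes in any fit (0.383). Among partners the direction turned for Ppp2r5d (-0.14 to 0.13, and 0.0086 with upper quartile scaling and 0.0013 with the 1 CPM filter), Ppp2r5e (-0.0017 to 0.16), Ppcs (-0.11 to 0.28), Bicral (-0.27 to 0.017), Smarcd1 (-0.12 to 0.23), Tti2 (-0.037 to 0.18), Dynll2 (-0.15 to 0.12), Atmin (-0.079 to 0.045) and Map3k7 (-0.037 to 0.17). The causes were not tested. With 3 samples a group, the intervals of the 9 genes left out a 2-fold difference, but smaller differences lay within the wider ones. Calls over all genes were less sensitive than these intervals. On simulated data edgeR recovered only 28% of 2-fold changes, so over all genes the lack of a call does not by itself exclude a change of that size. The changed genes were drawn at random from all but the lowest genes tested, so that share is not specific to the 9 genes. The median SE of the 9 genes was 0.175, beside 0.275 for all genes tested.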
